A study of Homo sapiens with 6 samples.

Results

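Vimentin and 9 keratins, VIM, KRT5, KRT7, KRT8, KRT15, KRT17, KRT18, KRT19, KRT80 and KRT81, were followed in lung adenocarcinoma cell lines that are resistant to EGFR tyrosine kinase inhibitors and in the lines they came from. The 10 genes were taken by their symbols from the 16000 genes listed in both deposited tables. Resistant lines were PC-9GR and PC-9ER, derived from PC-9, and HCC827GR and HCC827ER, derived from HCC827. PC-9 and HCC827 are established human lines that carry an activating EGFR mutation. What GR and ER stand for is not written out in the labels, 1 of which reads HCC82GR and is taken here as HCC827GR. They do not say whether a line is 1 clone or whether an inhibitor was in the medium at harvest. The medium was RPMI-1640 with serum for all 6 lines, and each gave 1 library of total RNA depleted of ribosomal RNA, so no line has a replicate. The series design text asks which signalling pathways bring about the resistance.

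Intermediate filaments are rope-like polymers of the cytoskeleton. Epithelial cells build theirs from keratins, which pair as 1 acidic type I chain (KRT15, KRT17, KRT18 and KRT19 here) with 1 basic type II chain (KRT5, KRT7, KRT8, KRT80 and KRT81 here). Vimentin is a type III protein that polymerises by itself and is the usual filament of mesenchymal cells. A shift of carcinoma cells towards vimentin and away from keratins is widely used as a sign of epithelial-mesenchymal transition, and glandular lung tumours usually hold KRT7, KRT8, KRT18 and KRT19.

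Levels are given as CPM, the counts divided by the library total and scaled to 1000000; totals were 14529332 (HCC827) to 17859787 (PC-9GR). The Spearman correlation across 13778 genes with the parental line was 0.96 for PC-9ER, 0.943 for HCC827GR and 0.888 for HCC827ER. The library labelled PC-9GR stood apart: its correlation was 0.774 with PC-9, against 0.828 with HCC827GR and 0.821 with HCC827. PC-9GR below means the library with that label. Both ER libraries, and no other, came in the second of 2 tables, so ER and table cannot be told apart. In HCC827ER, genes of ribosomal proteins took 15% of the counts, against 5.54% to 7.87% elsewhere, and the median log2 ratio of all expressed genes to HCC827 was -0.35 by total counts, while it was -0.0034 with TMM scaling, which sets libraries level by their bulk of genes and not by their totals. Changes in HCC827ER are therefore read against -0.35.

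The keratins of interest lie in the 2 keratin clusters of the genome. On chromosome 12 (GRCh38, GENCODE v29) the order is KRT80 (52168996 to 52192000), KRT7 (52232520 to 52252186), KRT81 (52285913 to 52291534), KRT5 (52514575 to 52520687), KRT8 (52897187 to 52949954) and KRT18 (52948871 to 52952901), the only type I gene among them. On chromosome 17 are KRT15 (41513743 to 41522529), KRT19 (41523617 to 41528308), 1087 bases further on, and KRT17 (41619441 to 41624842). VIM is on chromosome 10 (17228259 to 17237593). KRT8 and KRT18 overlap on opposite strands, and KRT86 overlaps KRT81 on the opposite strand and KRT7 on the same strand. No label gives the strand setting of the counting, so reads from such overlaps cannot be assigned by strand.

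KRT81 needs a caution before its values. It is a hair keratin whose coding sequence is in part the same as that of KRT86, so that reads can be shared out between the genes. Of the 1441 windows of 75 bases in the coding sequence of KRT81, 42.5% occur unaltered in KRT86 and 1.46% in KRT83, another hair keratin. The KRT81 counts are not whole numbers in any of the 4 libraries with a count above 0.

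VIM was higher in every resistant line than in either parental line. It stood at 1389 CPM in PC-9GR and 169 CPM in PC-9ER, against 5.27 CPM in PC-9. In the other family it stood at 929 CPM in HCC827GR and 723 CPM in HCC827ER, against 98.0 CPM in HCC827. The lowest resistant value was above the highest parental one, and the parental lines themselves differed, PC-9 having hardly any VIM. Of 13778 expressed genes, 417 (3.03%) lay in this way with all 4 resistant libraries above both parental ones, and VIM was the only member among them.

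**Figure D1:**
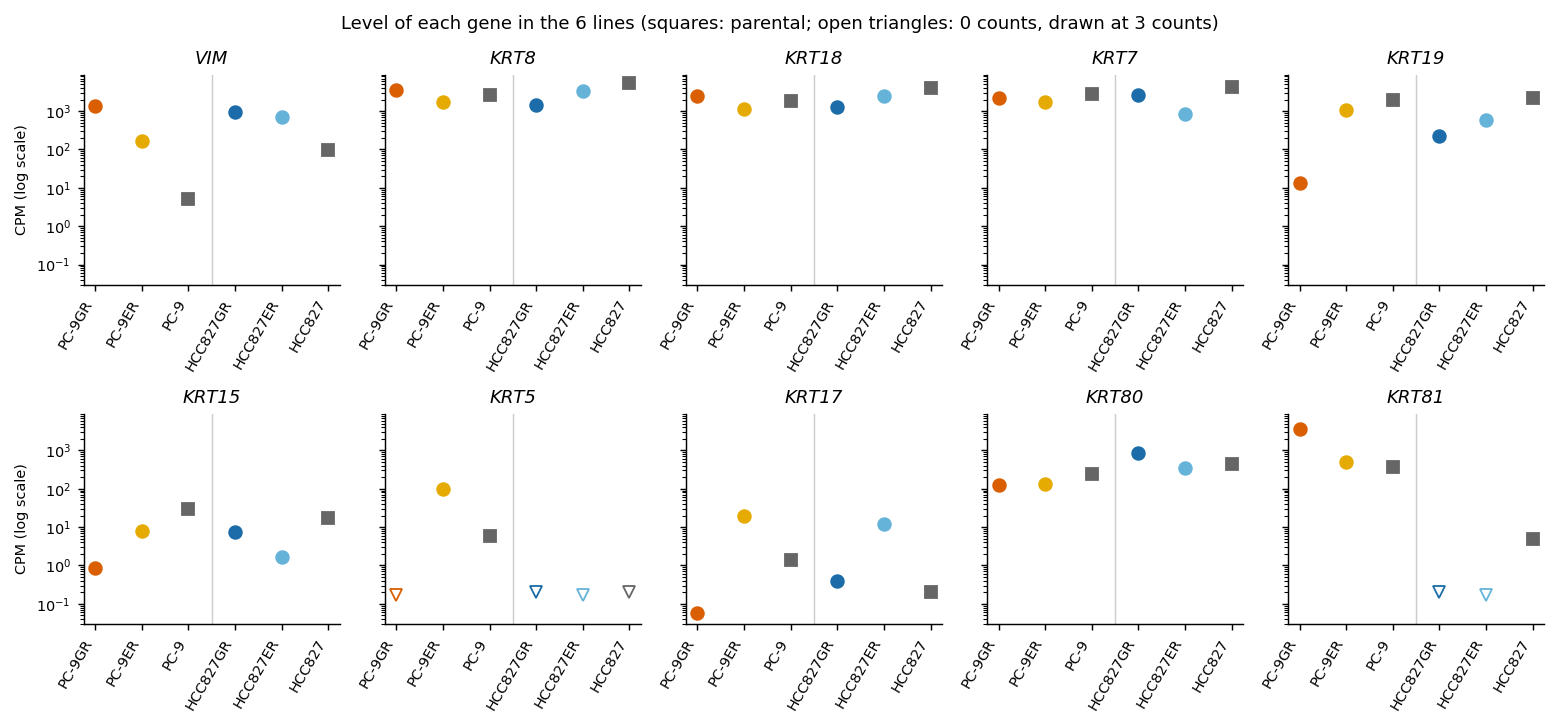
CPM of the 10 genes (log axis) in the 6 libraries, 1 point per library, circles for resistant and squares for parental lines; open triangles stand for 0 counts and are drawn at the level of 3 counts. VIM lies at 169 to 1389 CPM in the 4 resistant lines and at 5.27 and 98.0 CPM in the parental lines, whereas KRT81 and KRT5 are at 0 in both resistant lines of HCC827.

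The VIM ratio to the parent was 264-fold for PC-9GR, with a 95% counting interval of 214 to 328. It was 32.0-fold for PC-9ER, with an interval of 25.9 to 40.01. In the HCC827 family the ratios were 9.48-fold for HCC827GR (8.98 to 10.0) and 7.38-fold for HCC827ER (6.99 to 7.80). With TMM scaling the log2 ratios were 3.20 for HCC827GR and 3.23 for HCC827ER, so the order of these 2 lines depends on the scaling. These intervals cover counting error only, since reads carry no molecular identifiers, and not the spread between cultures. VIM was placed above 98.2% to 99.9% of all expressed genes in each of the 4 pairs.

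In the test over all 6 libraries with the parent as a block, VIM had a log2 fold change of 4.72 ± 1.52 (SE) in resistant against parental lines, with an edgeR adjusted p of 0.999 (unadjusted p = 0.0218). It did not pass. No gene did: edgeR called 0 of 13492 genes (0%) at an adjusted p of 0.05, DESeq2 called 29 (0.215%) and limma-voom 0. VIM was among the 29, at 4.73 ± 1.03 and a DESeq2 adjusted p of 0.00656. The spread in these tests is that between derived lines of a parent. With the parent as a block it also holds the difference between the changes of the 2 parents. A p thus says nothing of repeat cultures of 1 line. Where a PC-9 derivative is left out, PC-9 is set against 1 library. In the test within PC-9 and that of the difference, the spread then comes from the HCC827 lines alone. Under edgeR 342 genes (2.53%) had an unadjusted p below 0.05, and 2 of the 10 members were among them, VIM and KRT15.

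Within PC-9 the VIM change was 7.25 ± 1.78 (edgeR unadjusted p = 0.00712, adjusted p = 1). DESeq2 gave 7.24 with an adjusted p of 5.98e-07. edgeR called 0 of 14233 genes (0%) here, with 132 genes (0.927%) at an unadjusted p below 0.05, VIM being the single member, and DESeq2 called 107 (0.752%). Without PC-9ER, edgeR called 1223 of 14139 genes (8.65%), and VIM was called at 8.08 with an adjusted p of 2.27e-05. Without the library labelled PC-9GR edgeR called 2 genes (0.0144%), and the VIM change was 5.00 and not called. Within HCC827 the change was 3.22 ± 1.43 and was called by neither tool. The VIM change in PC-9 exceeded that in HCC827 by 4.03 ± 1.79 on the log2 scale, a difference that edgeR did not call (unadjusted p = 0.0671), and by 1.79 ± 1.42 without PC-9GR.

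KRT8 and KRT18 are the usual pair of simple epithelia, the first keratins made in the embryo. KRT8 stood at 3629 CPM in PC-9GR and 1769 CPM in PC-9ER, against 2568 CPM in PC-9. In the other family it stood at 1427 CPM in HCC827GR and 3335 CPM in HCC827ER, against 5359 CPM in HCC827. The resistant lines overlapped the parental ones: PC-9GR was above its parent by 1.41-fold, and the other 3 lines were below theirs, HCC827GR by 3.75-fold and the ER lines by 1.45-fold and 1.61-fold.

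KRT18, the type I partner of KRT8, was also highest in HCC827. Its level was 2447 CPM in PC-9GR and 1118 CPM in PC-9ER, against 1784 CPM in PC-9. In HCC827GR it was 1281 CPM and in HCC827ER 2523 CPM, against 4123 CPM in HCC827. Again PC-9GR was above its parent and the other 3 lines below, so the groups overlapped. Read against the median of all genes in HCC827ER, KRT8 (-0.68) and KRT18 (-0.71) were only somewhat lower there, and with TMM scaling their log2 ratios were -0.33 and -0.36. The fitted changes in resistant against parental lines were -0.44 ± 0.64 for KRT8 and -0.45 ± 0.60 for KRT18, smaller than their SE. Without PC-9GR they were -0.77 ± 0.63 and -0.80 ± 0.58.

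Per kb of transcript, KRT8 ran at 1.20 times KRT18 in PC-9GR and 1.28 times in PC-9ER, against 1.16 times in PC-9. The ratio was 0.901 in HCC827GR and 1.07 in HCC827ER, against 1.05 in HCC827. Over the 6 libraries the log2 profiles of the pair, each centred on its own mean, differed by a root mean square of 0.163. That was less than the distance of KRT8 from any of its 3 nearest non-members among 11269 genes with at least 10 CPM in 1 library, which were ABCA7, a lipid transporter (0.211), TCEAL3 (0.267) and the homeobox gene HOXB6 (0.299). KRT7, at 0.869, was the nearest type II member to KRT8. The 2 genes overlap by 1084 bases, and the part of shared reads in their likeness was not tested.

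**Figure D2:**
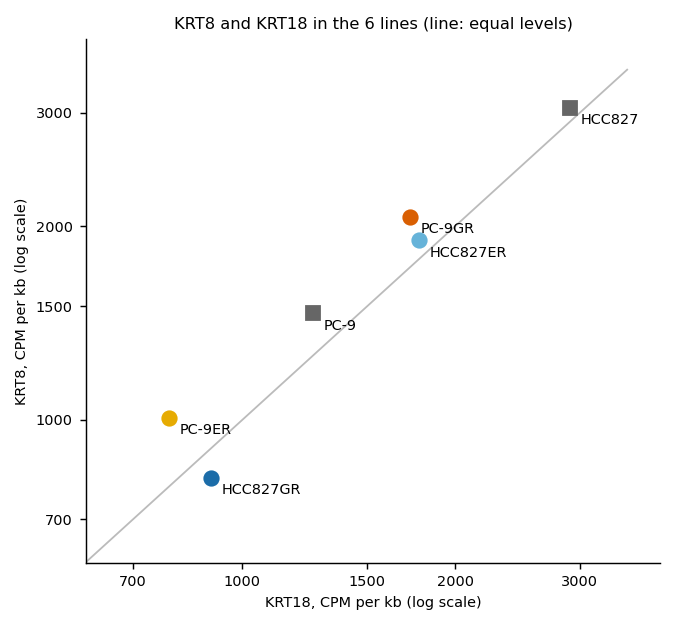
KRT8 against KRT18 in CPM per kb of transcript (log axes), 1 point per line; the diagonal marks equal levels. The 6 lines lie along the diagonal, with ratios of KRT8 to KRT18 between 0.901 (HCC827GR) and 1.28 (PC-9ER).

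KRT7 is a type II keratin of glands and ducts and a routine stain for lung adenocarcinoma. It stood at 2175 CPM in PC-9GR and 1769 CPM in PC-9ER, against 2818 CPM in PC-9. In the HCC827 family it stood at 2562 CPM in HCC827GR and 856 CPM in HCC827ER, against 4241 CPM in HCC827. All 4 resistant lines were below both parental ones. Against its own parent KRT7 was 1.30-fold lower in PC-9GR, 1.59-fold lower in PC-9ER, 1.66-fold lower in HCC827GR and 4.95-fold lower in HCC827ER. In HCC827ER its log2 ratio was -2.31 by total counts and -1.96 with TMM scaling. The fitted change was -0.88 ± 0.48 (edgeR unadjusted p = 0.116) and did not pass. The 3 genes nearest to KRT7 in profile were ZNF75D (0.13), FAM126B (0.16) and RC3H1 (0.164), the last of which encodes an RNA-binding ubiquitin ligase.

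KRT19, a short type I keratin that lacks the tail of other keratins, was scarce in PC-9GR and abundant in both parental lines. It stood at 13.05 CPM in PC-9GR and 1066 CPM in PC-9ER, against 1939 CPM in PC-9. In the HCC827 family it was at 225 CPM in HCC827GR and 583 CPM in HCC827ER, against 2159 CPM in HCC827. Every resistant value was below both parental values, which were close to each other. It was 149-fold lower in PC-9GR and 9.60-fold lower in HCC827GR, but 1.82-fold lower in PC-9ER and 3.70-fold lower in HCC827ER. In HCC827ER its log2 ratio was -1.89 by total counts and -1.54 with TMM scaling. The fitted change of -2.01 ± 1.33 did not pass (edgeR unadjusted p = 0.183). Within PC-9 it was -1.85 ± 2.14, and the 2 derivatives differed: without PC-9GR it was -0.87, and without PC-9ER it was -7.17. Without PC-9ER the fitted changes were -5.09 for KRT15 and -9.54 for KRT5. Each of these fits sets a single derivative against PC-9, so only the sizes are given. The KRT5 value depends on its 0 counts in PC-9GR and is no bound. KRT5 also had 0 counts in the HCC827 lines, from which the spread then comes.

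KRT15, a type I keratin of basal cells and the neighbour of KRT19, was a minor keratin in all lines. It was at 0.840 CPM in PC-9GR (15 counts) and 8.002 CPM in PC-9ER, against 29.7 CPM in PC-9. In the other family it was at 7.41 CPM in HCC827GR and 1.68 CPM in HCC827ER (29 counts), against 17.2 CPM in HCC827. All resistant values were below both parental ones. KRT15 was 35.4-fold lower in PC-9GR, 3.71-fold lower in PC-9ER, 2.32-fold lower in HCC827GR and 10.3-fold lower in HCC827ER. In HCC827ER its log2 ratio was -3.27 by total counts and -2.93 with TMM scaling. The fitted change was -2.34 ± 0.93 (edgeR unadjusted p = 0.0462, adjusted p = 0.999). KRT7, KRT15 and KRT19 were the 3 members with all resistant libraries below both parental ones, a pattern held by 539 (3.91%) of the 13778 expressed genes. Leaving out a resistant library cannot undo this pattern for a gene and can only add genes to it. Without the library labelled PC-9GR, or without HCC827ER, no further member joined VIM above or these 3 below. The share of all genes was 4.8% above and 5.69% below without PC-9GR, and 4.9% above and 4.62% below without HCC827ER.

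KRT5 and KRT17 are keratins of basal and squamous cells, and KRT17 is also induced in wounded epithelium. KRT5 was at 0 CPM in PC-9GR and 97.6 CPM in PC-9ER, against 5.92 CPM in PC-9, and had 0 counts in HCC827GR, HCC827ER and HCC827, which leaves room for 3 counts (0.173 to 0.206 CPM). It was thus 16.5-fold higher in PC-9ER (13.5 to 20.4) and at least 35.2-fold lower in PC-9GR, taking 3 counts as the most that PC-9GR could hold. The 2 lines from PC-9 lay on opposite sides of it. KRT17 had 1 count in PC-9GR and 346 in PC-9ER, against 24 in PC-9, and 6 counts in HCC827GR and 209 in HCC827ER, against 3 in HCC827. In CPM these were 0.0560 in PC-9GR and 20.1 in PC-9ER, against 1.42 in PC-9, and 0.401 in HCC827GR and 12.1 in HCC827ER, against 0.206 in HCC827.

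KRT17 was therefore high in both ER lines and low in the other 4. Its ratio to the parent was 14.1-fold in PC-9ER (9.34 to 22.4) and 58.5-fold in HCC827ER (19.8 to 286), where the parent had 3 counts. It was 0.0394 in PC-9GR (0.00096 to 0.242) and 1.94 in HCC827GR (0.41 to 11.99). Both ER libraries were at least 4-fold above each of the other 4 for 4 of 13778 genes (0.029%), KRT17 included. This pattern was not among the planned comparisons and follows the profile of KRT17 itself, so its rarity is a description only. Since both ER libraries share a table, ER and table cannot be told apart for this gene. The fitted changes, 2.95 ± 3.72 for KRT5 and 3.76 ± 2.48 for KRT17, were each less than 2 times their SE, the derived lines of PC-9 lying on both sides of their parent.

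KRT80, a type II keratin found near desmosomes, was lower in both PC-9 derivatives and higher in HCC827GR. It stood at 128 CPM in PC-9GR and 133 CPM in PC-9ER, against 248 CPM in PC-9, and at 868 CPM in HCC827GR and 359 CPM in HCC827ER, against 454 CPM in HCC827. PC-9GR was 1.94-fold and PC-9ER 1.86-fold below PC-9. HCC827GR was 1.91-fold above its parent and HCC827ER 1.27-fold below. In HCC827ER its log2 ratio of -0.34 was close to the median of all genes there (-0.35), and with TMM scaling it was 0.01. The difference between the families, -1.42 ± 0.97, did not pass (edgeR unadjusted p = 0.193).

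KRT81, a type II keratin of the hair cortex, differed widely between the 2 families. It stood at 3644 CPM in PC-9GR and 496 CPM in PC-9ER, against 376 CPM in PC-9. It had 0 counts in HCC827GR and in HCC827ER, against 4.86 CPM (70.7 counts) in HCC827. The gene was thus abundant in all 3 PC-9 lines and low or at 0 in the 3 HCC827 lines. It was 9.70-fold higher in PC-9GR (9.45 to 9.95) and 1.32-fold higher in PC-9ER, and at least 24.3-fold lower in HCC827GR and 28.0-fold lower in HCC827ER against a floor of 3 counts per library.

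The change of KRT81 in PC-9 minus that in HCC827 was 11.77 ± 2.91 on the log2 scale (edgeR unadjusted p = 0.0137, adjusted p = 1), a fitted value that depends on the 0 counts and is no bound. edgeR called 0 of 14233 genes (0%) for this difference, with 117 (0.822%) at an unadjusted p below 0.05, KRT81 being the single member. DESeq2 called 33 (0.232%), KRT81 included at 11.07 with an adjusted p of 0.00107. Within PC-9 alone the KRT81 change was 2.501 ± 1.52, and 0.40 without PC-9GR. For the difference, leaving out PC-9GR or PC-9ER, edgeR called 10 (0.0719%) or 544 (3.85%) genes, and KRT81 was at 9.64 and 12.56. The spread in these fits came from HCC827GR and HCC827ER alone, and both had 0 counts of KRT81. For KRT81 these fits therefore cannot show how far lines differ, so only its sizes are given. Within HCC827 edgeR called 0 of 14233 genes (0%), with 193 (1.36%) at an unadjusted p below 0.05, KRT81 again the single member at -9.27 ± 2.18. DESeq2 called 42 (0.295%) there, KRT81 included at -8.58 with an adjusted p of 0.00694.

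The overlapping KRT86 did not share the high level of KRT81. It was at 7.25 CPM in PC-9GR and 2.58 CPM in PC-9ER, against 1.84 CPM in PC-9, and at 1.07 CPM in HCC827GR and 1.45 CPM in HCC827ER, against 2.502 CPM in HCC827. The split of reads between the copies was not tested. The genes nearest to KRT81 in profile, at much larger distances than for KRT7 or KRT8, were the aldehyde dehydrogenase ALDH3A1 (1.80), the activin subunit gene INHBB (1.95) and INA, a neuronal intermediate filament (2.04). ALDH3A1 was at 937 CPM in PC-9GR and 92.3 CPM in PC-9ER, against 93.9 CPM in PC-9, and at 0 in all 3 HCC827 lines. The 3 genes nearest to VIM were the kinase NEK3 (1.06), the stress-induced chromatin protein NUPR1 (1.07) and LIX1L (1.08).

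Over the 10 genes, 3 fitted changes in resistant against parental lines were positive and 7 negative, with a median of -0.45, against 0.04 over all 13492 genes. In the PC-9 lines 6 were positive and 4 negative (median 0.06, against 0.09 over all genes). In the HCC827 lines 3 were positive and 6 negative, KRT5 having no value, with a median of -0.93, against 0.04. The difference between the families had a median of 0.76 over 9 members, against 0.06, with 6 positive and 3 negative. KRT5 and KRT17 pass the expression filter through the few libraries in which they are high, so these medians are a description.

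**Figure D3:**
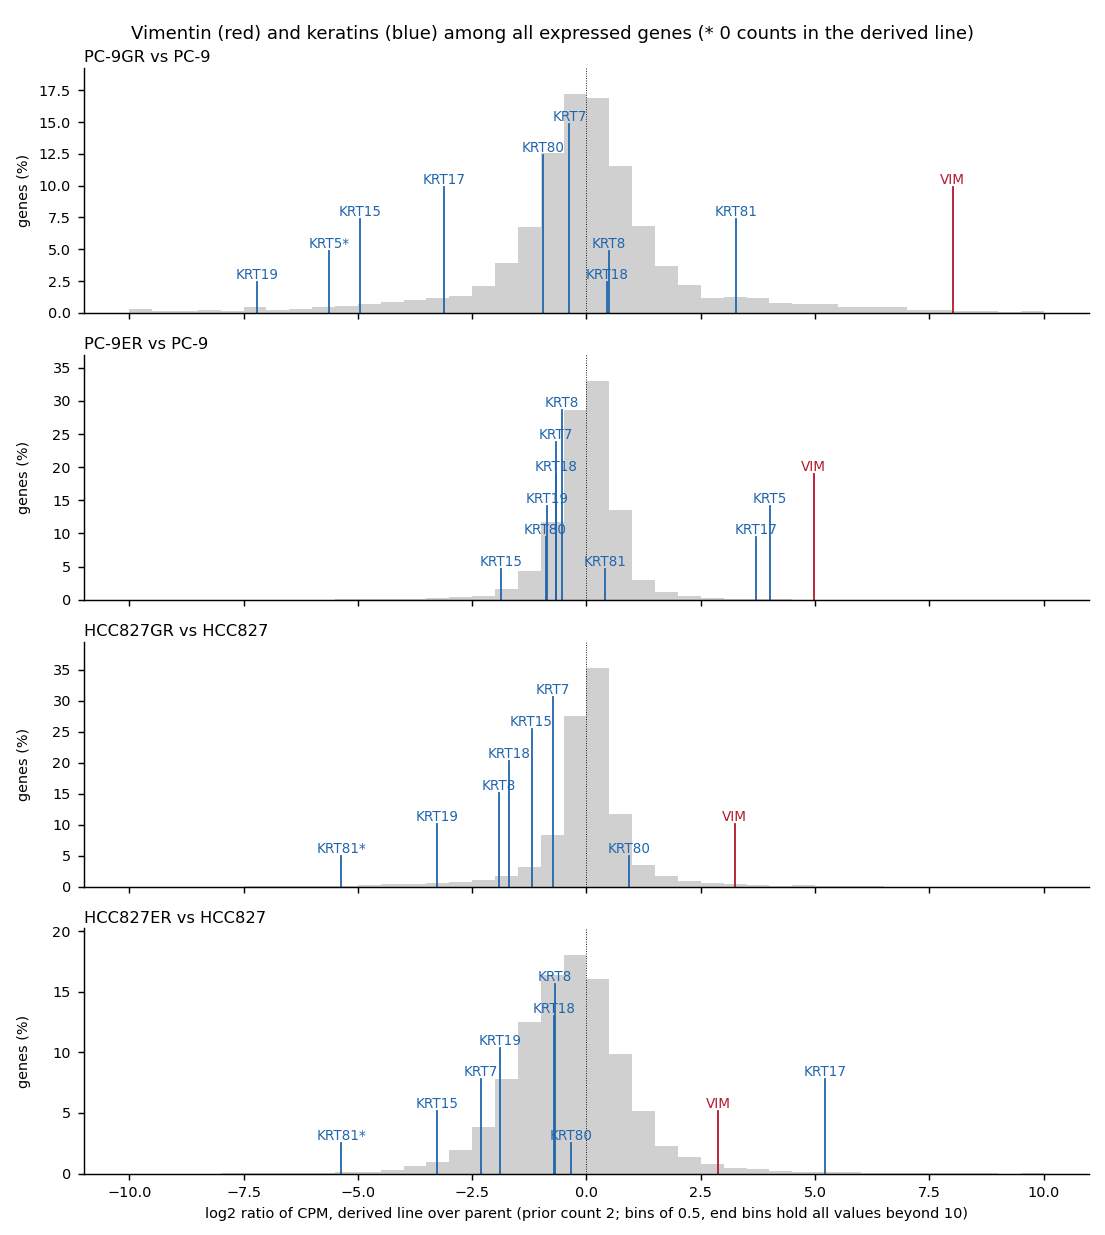
Log2 ratio of CPM of each resistant line to its parent for the members with at least 1 CPM in 1 of the 2 libraries (vertical lines, VIM red, keratins blue, heights only set labels apart) over the share of all expressed genes per bin of 0.5 (grey bars). VIM lies in the right tail of all 4 panels, at 8.01 for PC-9GR, 4.97 for PC-9ER, 3.24 for HCC827GR and 2.88 for HCC827ER, and KRT15 and KRT19 lie left of 0 in all 4.

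Pair by pair, 2 of 10 members (VIM and KRT81) were at least 2-fold higher in PC-9GR than in PC-9, against 20.9% of all expressed genes, and 4 (KRT5, KRT15, KRT17 and KRT19) at least 2-fold lower, against 20.9%. So wide a spread of all genes makes these counts no result about the members. In PC-9ER 3 of 10 (VIM, KRT5 and KRT17) were higher, against 5.49%, and 1 (KRT15) lower, against 7.6%. In HCC827GR 1 of 8 expressed members (VIM) was higher, against 8.18%, and 5 (KRT8, KRT15, KRT18, KRT19 and KRT81) lower, against 8.79%. In HCC827ER 2 of 9 (VIM and KRT17) were higher, against 11.3%, and 4 (KRT7, KRT15, KRT19 and KRT81) lower, against 28.3%, and with TMM scaling the shares of all genes were 17.7% and 19.1% with the same member counts. KRT8 and KRT18 passed 2-fold in HCC827GR alone and KRT7 in HCC827ER alone, which describes single libraries.

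The weight of vimentin among the filament transcripts was taken as its share of the summed CPM per kb of VIM and the 31 keratins listed in both tables. It was 9.60% in PC-9GR and 2.21% in PC-9ER, against 0.0467% in PC-9. It was 12.2% in HCC827GR and 7.62% in HCC827ER, against 0.518% in HCC827. Keratin transcripts thus outnumbered VIM transcripts in all 6 lines. Of plain counts the VIM share was 2.47% in PC-9ER, with a 95% Wilson interval of 2.39% to 2.56%, against 0.0534% in PC-9 (0.0434% to 0.0657%), which rests on 89 counts. These intervals too cover counting error only, and each share is that of 1 library.

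The summed keratin level differed from the parents by far less than VIM did. It was 7005 CPM per kb in PC-9GR and 4002 in PC-9ER, against 6041 in PC-9, and 3570 in HCC827GR and 4693 in HCC827ER, against 10084 in HCC827. PC-9GR was thus above its parent and the other 3 below. The 9 keratins of interest made 97.4% (PC-9ER) to 99.9% (HCC827GR) of all keratin counts. In most lines KRT7, KRT8, KRT18 and KRT19 dominated, while in PC-9GR KRT81 took 24.4% of the filament total and KRT19 0.121%, whereas in PC-9 KRT81 took 3.22% and KRT19 23.1%.

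**Figure D4:**
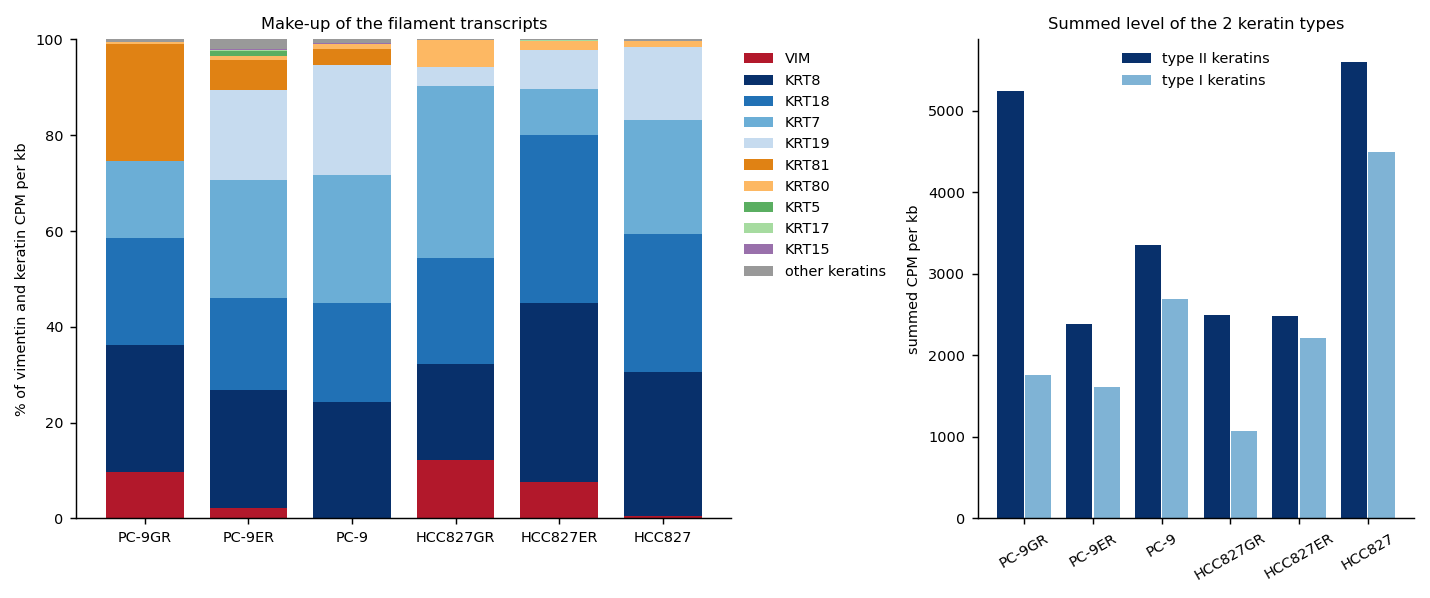
Left, share of each gene in the summed CPM per kb of VIM and all keratins, stacked to 100% for each line. Right, summed CPM per kb of type II and type I keratins. VIM reaches 12.2% in HCC827GR and 9.60% in PC-9GR, and type II exceeds type I by 2.98 times in PC-9GR and 2.33 times in HCC827GR.

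Since type I and type II chains pair, their sums can be set side by side. The type II sum was 2.98 times the type I sum in PC-9GR and 1.48 times in PC-9ER, against 1.24 times in PC-9. It was 2.33 times in HCC827GR and 1.122 times in HCC827ER, against 1.25 times in HCC827. Both GR lines, the 2 with the lowest KRT19, had a higher ratio of type II to type I than their parents, and the ER lines were close to theirs. In HCC827GR both sums were below HCC827, type II at 2499 against 5593 CPM per kb and type I at 1071 against 4491. In PC-9GR type II was at 5245 against 3350 CPM per kb in PC-9, and type I at 1760 against 2691. The high KRT81 in PC-9GR, a type II gene with uncertain counts, is part of the higher ratio there.

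The other intermediate filament genes and the plakins that tie filaments to desmosomes and to other parts of the cell made a list of 43 genes (22 keratins, 14 other filament genes and 7 linkers). Of these, 25 had a value in resistant against parental lines, 8 positive and 17 negative, with a median of -0.46, and edgeR called 0. The linkers PPL (periplakin, -2.66 ± 0.76) and EVPL (envoplakin, -1.21 ± 0.42) had unadjusted p values of 0.0125 and 0.029. PPL was at 7.28 CPM in PC-9GR and 38.7 CPM in PC-9ER, against 139 CPM in PC-9, and at 3.54 CPM in HCC827GR and 10.2 CPM in HCC827ER, against 54.6 CPM in HCC827. All 4 resistant values of PPL were below both parental ones, as those of KRT7, KRT15 and KRT19 were.

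By pair, 8 of 27 expressed genes of this list were at least 2-fold higher in PC-9GR and 11 lower, where 20.9% of all expressed genes were higher and 20.9% lower. In PC-9ER 3 of 24 were higher and 6 lower, against 5.49% and 7.6% of all genes. In HCC827GR 0 of 16 were higher and 5 lower, against 8.18% and 8.79%, and in HCC827ER 0 of 16 and 10, against 11.3% and 28.3%. The genes named next are those with the highest and lowest ratios among genes with at least 10 CPM in 1 library of the pair. The highest ratios in PC-9ER were those of KRT6A (18.3 CPM, against 0.955 CPM), KRT34 (16.1 CPM, against 1.24 CPM) and KRT6B (65.5 CPM, against 35.7 CPM). KRT6A and KRT6B, partners of KRT16 and KRT17 in stressed epithelium, share 97.5% of their coding bases, so reads may be split between them. In PC-9GR the lowest were KRT6B (0 CPM, against 35.7 CPM), the neurofilament NEFH (0.0560 CPM, against 24.9 CPM) and KRT23 (0.0560 CPM, against 19.9 CPM). The highest there were KRT4 (13.3 CPM, against 0 CPM), SYNC (16.0 CPM, against 0.444 CPM) and the hair keratin KRT83 (11.7 CPM, against 0.355 CPM). Of the windows of 75 bases in KRT83, 1.49% occur in KRT81.

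In both HCC827 derivatives KRT16, a type I keratin of stressed epithelium, had the lowest ratio of the list, at 0.200 CPM in HCC827GR and 2.08 CPM in HCC827ER, against 29.6 CPM in HCC827. PPL was also among the 3 lowest in both. EVPL was at 21.3 CPM in HCC827GR, against 70.3 CPM in HCC827, and the lamin LMNB1 at 16.2 CPM in HCC827ER, against 108 CPM in HCC827. KRT16 and KRT17, which are often made together, were on opposite sides of the parent in HCC827ER. In PC-9ER the lowest were the linkers MACF1 (116 CPM, against 420 CPM), PPL and DST (78.1 CPM, against 214 CPM). In HCC827GR the highest of the list were DST (275 CPM, against 180 CPM), SYNM and LMNB2, the last 2 at nearly the level of HCC827, and in HCC827ER they were LMNB2, KRT10 and LMNA, which were below HCC827.

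Markers of cell type differed between the lines as well. The summed level of 7 epithelial markers was 411 CPM in PC-9GR and 1512 CPM in PC-9ER, against 1732 CPM in PC-9, and 249 CPM in HCC827GR and 760 CPM in HCC827ER, against 2196 CPM in HCC827. GRHL2 was at 0 CPM in PC-9GR, against 94.3 CPM in PC-9, and EPCAM at 1.90 CPM, against 383 CPM. ELF3, an epithelial transcription factor of the same list, was the exception, at 350 CPM in PC-9GR, most of the sum there, against 159 CPM in PC-9. ELF3 was at 277 CPM in HCC827ER as well, against 252 CPM in HCC827, while all 7 markers were lower in HCC827GR than in HCC827. The lines with the lowest KRT19 were thus also those with the lowest epithelial sum. ZEB1, a repressor of epithelial genes, was at 25.2 CPM in PC-9GR and 0.754 CPM in PC-9ER, against 0.651 CPM in PC-9, and at 36.9 CPM in HCC827GR and 8.15 CPM in HCC827ER, against 6.40 CPM in HCC827. The 5 of 6 epithelial-mesenchymal transcription factors listed in both tables summed to 59.7 CPM in PC-9GR and 46.6 CPM in PC-9ER, against 14.1 CPM in PC-9, and to 83.9 CPM in HCC827GR and 40.9 CPM in HCC827ER, against 62.8 CPM in HCC827. Their members did not go together: SNAI2 was at 2.46 CPM in PC-9GR and 38.3 CPM in PC-9ER, against 8.11 CPM in PC-9, and TWIST2 was at 15.7 CPM in PC-9GR, with no count in PC-9ER or PC-9. In the HCC827 family SNAI1, SNAI2 and TWIST2 were lower in both derivatives than in HCC827, and ZEB1 and ZEB2 higher.

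The fibroblast list, whose cells also make VIM, summed to 63.4 CPM in PC-9GR and 43.3 CPM in PC-9ER, against 23.6 CPM in PC-9, and to 6.28 CPM in HCC827GR and 6.997 CPM in HCC827ER, against 9.77 CPM in HCC827, over the 7 of 10 genes listed in both tables. COL1A1 and ACTA2 made most of these sums. ACTA2 was at 32.2 CPM in PC-9GR and 2.09 CPM in PC-9ER, against 0.592 CPM in PC-9, and COL1A1 at 30.2 CPM in PC-9GR and 41.0 CPM in PC-9ER, against 22.5 CPM in PC-9. DCN and FAP had at most 5 counts in any library. Of the genes listed in the first table only, THY1 had 171 counts in PC-9GR, against 1 in PC-9, PDGFRA 19 against 0, and the transcription factor TWIST1 38 against 6. COL3A1, also listed there only, had 0 counts in PC-9GR, against 2 in PC-9, and COL1A2 had 4 counts in both. Some mesenchymal markers were thus above PC-9 in PC-9GR beside VIM, PDGFRA and TWIST1 at few counts, and others were not. The basal list summed to 119 CPM in PC-9ER, against 7.85 CPM in PC-9. Of the sum in PC-9ER, the member KRT5 made 97.6 CPM and KRT6A 18.3 CPM. TP63 was at 3.23 CPM in PC-9ER, against 0.976 CPM in PC-9. DSG3 had 2.05 counts and KRT14, the usual partner of KRT5, 2.01 counts in PC-9ER, both against 0 in PC-9. Endothelial markers were at 0.280 CPM in PC-9GR and 55.7 CPM in PC-9ER, against 220 CPM in PC-9, a further value by which the library labelled PC-9GR stood apart from its family. Alveolar markers summed to 0.896 to 43.8 CPM, and the leukocyte list to 22.3 to 127 CPM, most of it CD68. In PC-9GR CD68 was at 26.9 CPM and CD14 at 5.04 CPM, against 25.7 CPM and 0.0592 CPM in PC-9. The part of cell make-up in the values of VIM and the keratins was not tested, and in bulk RNA more cells with a transcript and more transcript per cell cannot be told apart.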

How the data were processed

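The deposited values are expected counts per gene from total RNA of 6 lines (TruSeq Stranded Ribo-Zero, per the labels' protocols); the authors used HISAT2 2.0.4, GRCh38.p13 and Cuffdiff, per the submitters' processing notes, with a counting program not given in the sources used here. In each library 13.2% to 14.3% of values were not whole, and all were rounded for testing. Genes listed in only 1 of the 2 tables (854 and 306) were left out of comparisons. Members and lists were chosen with earlier results of these data known.

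CPM used library totals. Ratios have exact conditional binomial intervals at 95%; log2 ratios have a prior count of 2, and a pair counts a gene with at least 1 CPM in 1 library. Tests used edgeR 4.0.16 (TMM, default expression filter, robust quasi-likelihood, Benjamini-Hochberg at 0.05) in R 4.3.3, over all 6 libraries, with 3 residual degrees of freedom for the comparison across both parents and 2 for the others. Alternatives were DESeq2 1.42.0, limma-voom (limma 3.58.1), other scalings and filters, and leaving out 1 library at a time. For a comparison within a family, only derivatives of that family were left out. Scripts were tested on simulated data. Lengths are those of GENCODE v29 principal transcripts, found for 15449 genes (96.6%). The genes named are the 10 members; of other filament and linker genes, those called by edgeR or with the 3 highest and 3 lowest ratios per pair at 10 CPM or more; the 3 nearest profiles of VIM, KRT7, KRT8 and KRT81; and markers. KRT86, EVPL and PPL in the first comparison were named after their values were seen. Protein sequences were not used here.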

Additional observations from a re-analysis of the deposited data

Results flagged for a closer look

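The change of KRT81 in the PC-9 family minus that in the HCC827 family was 11.77 on the log2 scale. It is given here because both PC-9 derivatives were above PC-9 while both HCC827 derivatives were below HCC827; the test of the difference did not pass with edgeR (adjusted p = 1) and passed with DESeq2 (adjusted p = 0.00107). KRT222, KRT6C and KRT28 appear in a single table and were in no comparison. KRT222 had 20 counts in the library labelled PC-9GR, against 0 in the other 3 libraries of its table, KRT6C had 8.45 counts in PC-9ER, and KRT28 had 4 counts in HCC827ER, each above the 3 counts that a count of 0 allows. There are no further libraries of these lines beside which they could be set.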

How the results depend on the processing

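No paired analysis was possible because the labels give no replicate numbers to use as a block, each line having 1 library; the comparison across both parents has the parent of origin as its block. edgeR called 0 genes in each of the 4 comparisons with DESeq2 size factors, with total counts, without the expression filter and with limma-voom in its place, whereas DESeq2 called 29 genes in resistant against parental lines, 107 in PC-9, 42 in HCC827 and 33 for the difference. Leaving out 1 library at a time, edgeR called 0 to 0 genes in resistant against parental lines, 2 to 1223 in PC-9, 0 to 0 in HCC827 and 0 to 544 for the difference.

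Of 322 fitted values of the 10 genes under the alternatives, 293 kept direction and side of the threshold, 10 passed it and 19 turned. With limma-voom the values that turned were KRT5 (-1.54) and KRT81 (1.122) across both parents, KRT5 (-1.83), KRT17 (-0.14) and KRT18 (-0.089) in PC-9, and KRT19 (-1.60) for the difference; with total counts it was KRT18 in PC-9 (-0.0014). The other turns came with leaving out 1 library, and the ranges over the libraries left out for each comparison follow. In PC-9 they were -0.54 (without PC-9GR) to 0.54 for KRT8, -0.68 (without PC-9GR) to 0.50 for KRT18, -9.54 (without PC-9ER) to 4.04 for KRT5 and -4.44 (without PC-9ER) to 3.81 for KRT17. For the difference they were -3.21 to 0.25 (without HCC827GR) for KRT15, -9.65 to 1.90 (without HCC827ER) for KRT17 and -5.01 (without PC-9ER) to 1.43 for KRT19, which was -0.32 without HCC827GR. Across both parents they were -0.92 to 0.10 (without HCC827) for KRT8, -0.88 to 0.029 (without HCC827) for KRT18, -9.25 to 2.501 (without HCC827) for KRT81 and -0.90 to 0.52 (without PC-9) for KRT80. VIM turned in none, and its change across both parents ranged over 3.22 to 7.25. The cause of these turns was not tested.

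Each ratio in single pairs was taken again both with a prior count of 0.5 and with TMM scaling. Of the 68 values so obtained for ratios with a counting interval, 54 stayed within it and 14 moved beyond it. All 14 were values with TMM scaling. Of the 6 values against a library at 0 counts, all 3 with a prior count of 0.5 moved, KRT5 in PC-9GR to -7.61 and KRT81 in HCC827GR and HCC827ER to -7.33. By plain CPM the vimentin share was 10.3% in PC-9GR, 2.47% in PC-9ER, 12.7% in HCC827GR, 8.60% in HCC827ER and 0.594% in HCC827. At 4-fold, 0 other filament and linker genes were lower in PC-9ER and 2 in HCC827GR. The counts of members above or below both parental lines, recomputed with TMM scaling and without PC-9GR or HCC827ER, were chosen after seeing the data and stayed at 1 and 3. Leaving out a resistant library could only have raised these counts, so only the recount with TMM scaling could have lowered them. Depth limits KRT5 and KRT81, which were at 0 in 4 and 2 libraries, to bounds, and leaves wide intervals for KRT17, which had 1 count in PC-9GR and 3 in HCC827.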
